A study of Mus musculus with 4 samples.

Results

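The genes of retinoic acid metabolism and its receptors were examined in mouse embryonic stem cells (ESCs) with and without Cripto. They are 9 of the 37620 genes in the raw count table and all 9 are among the 15462 that the authors kept after removing genes of low expression: *Stra6*, *Aldh1a2*, *Cyp26a1*, *Cyp26b1*, *Crabp1*, *Crabp2*, *Rara*, *Rarb* and *Rarg*. The set was selected on the strong rise of *Cyp26a1* and on the opposite directions of *Crabp1* in the 2 genotypes, both read from the normalized values of the same 4 libraries, so the values of these genes in the 4 libraries are given as a description and not as a test of the set.

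The cells were R1 ESCs of strain 129/Sv, a wild-type (WT) line and a line without Cripto (Cripto KO). Each line was kept in medium with serum and leukaemia inhibitory factor (serum/LIF), labelled ESC, or passed 6 days in N2B27 with bFGF and 20 ng/ml Activin A (F/A), labelled EpiSC for epiblast stem cell. RNA from each of these cultures was sequenced as 1 library, and the labels do not say which of the 2 knockout clones of the study was used. Differences between genotypes are therefore also differences between single cell lines, and no value carries a replicate error.

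Retinoic acid is made from vitamin A inside cells. The membrane receptor encoded by *Stra6* takes up retinol from its plasma carrier, retinol dehydrogenases such as the product of *Rdh10* oxidize it to retinal, and the aldehyde dehydrogenase encoded by *Aldh1a2* converts retinal to retinoic acid, the main source in the early mesoderm. The CYP26 enzymes oxidize and so clear retinoic acid, and CRABP1 and CRABP2 carry it within the cytoplasm, CRABP2 being known to deliver it to the nucleus. The receptors RARα, RARβ and RARγ bind DNA as partners of RXR, at pairs of similar hexamers repeated in the same direction. *Cyp26a1* and *Rarb* are textbook examples of genes that retinoic acid itself switches on, and ESCs have long been used to study this response.

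The promoters of *Cyp26a1* and *Rarb* are shown first because these genes had the largest rises of the 9 in WT and were the members whose windows held a repeat of the RAR type. Promoter windows from 250 bases before to 50 bases after each start were taken from RefSeq (GRCm38.p6). It held 15 windows for 8 of the genes and none for *Crabp2*. Each window was found once on its own chromosome, in the orientation of its gene, in NCBIM37 (mm9), the build of the counts. Other chromosomes were not searched for it. The windows were searched on both strands for pairs drawn from the consensus hexamer AGGTCA, its variant AGTTCA, the form GGTTCA and a further form, GGGTCA. The pairs were spaced by 1, 2 or 5 bases in a direct repeat (DR1, DR2 and DR5). A DR5 was present in 2 of the 15 windows and no DR1 or DR2 was present in any. Each window is written 5′ to 3′ on the strand of its gene with the repeat in capitals. In *Rarb* (chr14:17407941-17408240, minus strand) the repeat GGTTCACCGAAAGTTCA ran from 53 to 37 bases before the start, and this start lies inside the annotated span of the gene. In *Cyp26a1* (chr19:37772048-37772347, plus strand) the repeat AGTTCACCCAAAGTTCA lay on the opposite strand from 32 to 16 bases before the start, so the capitals show its complement.
Rarb: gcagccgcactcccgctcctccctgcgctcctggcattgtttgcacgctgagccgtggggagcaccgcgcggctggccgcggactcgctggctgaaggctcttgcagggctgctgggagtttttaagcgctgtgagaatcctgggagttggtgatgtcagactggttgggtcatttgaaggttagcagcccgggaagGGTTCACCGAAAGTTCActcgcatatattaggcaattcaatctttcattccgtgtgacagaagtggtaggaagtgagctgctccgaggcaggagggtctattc
Cyp26a1: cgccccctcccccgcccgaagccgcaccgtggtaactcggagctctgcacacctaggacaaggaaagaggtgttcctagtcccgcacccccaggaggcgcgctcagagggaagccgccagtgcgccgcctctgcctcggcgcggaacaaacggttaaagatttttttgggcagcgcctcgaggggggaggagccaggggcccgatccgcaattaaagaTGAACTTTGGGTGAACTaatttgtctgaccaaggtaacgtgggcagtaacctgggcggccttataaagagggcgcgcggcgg

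The background for such a match is low for the pairs and high for a single hexamer. A DR5 was found in 32 of 32851 mouse promoter windows, or 0.0974%, a DR2 in 0.268% and a DR1 in 0.222%, whereas a single hexamer was found in 43.7%. The 32 windows belong to 31 genes, of which 4 were kept in the expression table: *Cyp26a1*, *Rarb*, *Blvrb* and *Gm4631*, the latter pair named here after their values were seen. *Blvrb*, which encodes a biliverdin reductase, had 199 and 117 raw counts in WT serum/LIF and F/A, and *Gm4631* had 3264 and 595. A shared repeat therefore did not go with 1 direction of change among these genes, and a match of letters does not show binding.

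Library totals ran from 15230856 to 17315442 counts on genes. Nearly every count in Cripto KO F/A was even, with odd counts for 0.0160% of its detected genes against 53.1% to 53.6% elsewhere, so its counts were divided by 2 wherever a counting interval was computed and its detection limit set to 6 counts in place of 3. The knocked-out gene *Tdgf1*, which encodes Cripto, had 18714 raw counts in WT serum/LIF, 1572 in WT F/A, 945 in Cripto KO serum/LIF and 86 in Cripto KO F/A, and was lower in Cripto KO than in WT in both media. Naive pluripotency markers summed to 3619 and 3226 cpm (counts scaled to the library total) in WT and Cripto KO serum/LIF and to 29.9 and 46.3 cpm in F/A. Markers of primed epiblast summed to 180 and 190 cpm in serum/LIF and to 617.6 and 323 cpm in F/A, in the order WT and Cripto KO, with *Pou3f1* at 0 in every library. *Pou5f1*, *Nanog* and *Sox2*, which EpiSCs are known to keep, fell in both genotypes and summed to 176 and 133 cpm in F/A against 2948 and 2579 cpm in serum/LIF. Markers of the primitive streak and caudal progenitors summed to 14.96 and 13.04 cpm in serum/LIF and to 832 and 539 cpm in F/A, most of it from *T*, and *Krt8* took most of a trophoblast marker list that stood at 1359 and 1568 cpm in F/A.

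Throughout, a gene is said to have risen or fallen between libraries when its normalized value differed by a factor of at least 2 and the 95% counting interval of its raw-count ratio did not hold 1. These intervals cover counting error only. In bulk RNA, fewer cells that express a gene and less RNA per cell cannot be told apart.

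On moving from serum/LIF to F/A, WT cells gained transcripts for retinol uptake, retinoic acid synthesis and retinoic acid clearance, with 1 receptor gene. *Crabp1* fell in WT, as did *Rarg*, whose call does not hold once a trend with median transcript length is removed. Cripto KO cells gained the same 4 transcripts and both carriers besides. By the rule above, 4 of the 9 genes rose and 2 fell in WT, beside 42.6% of all genes tested (21.7% higher and 20.9% lower), and 6 rose and 0 fell in Cripto KO, beside 37.8% of all genes (18.8% higher and 18.9% lower). *Cyp26a1*, *Aldh1a2*, *Stra6* and *Rarb* rose in both genotypes. The median log2 change of the 9 genes was 0.68 in WT and 3.35 in Cripto KO, against -0.07 over all genes in both. These are the contrasts on which the genes were chosen, so nothing is read from the counts.

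**Figure D1:**
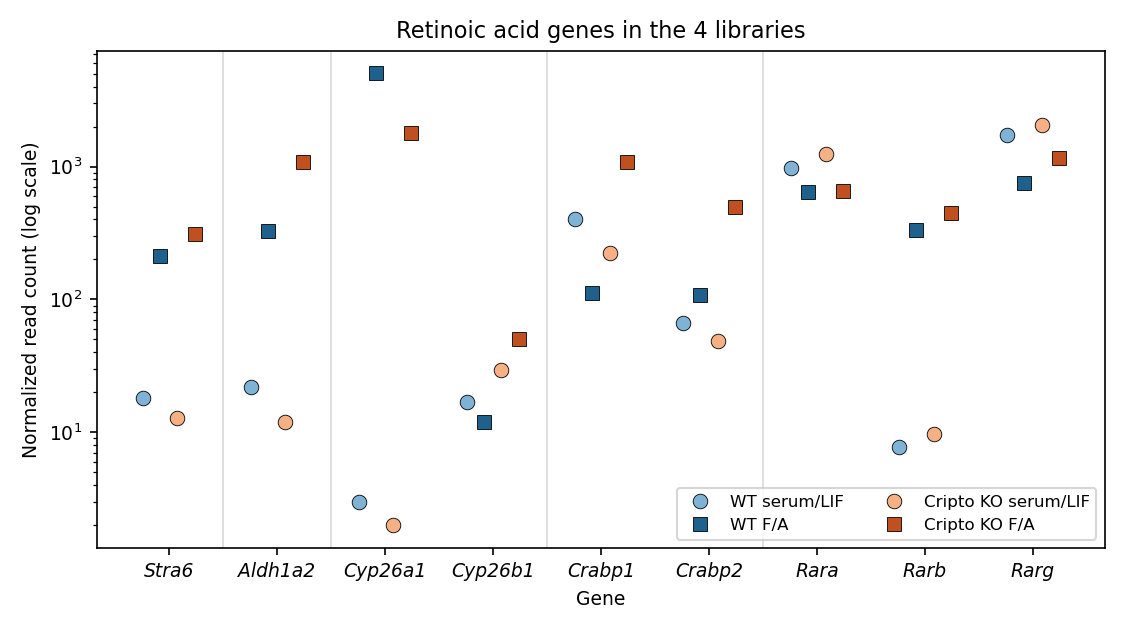
Normalized read count (log scale) of the 9 genes in each of the 4 libraries. Circles are serum/LIF and squares F/A, blue WT and orange Cripto KO, and each symbol is 1 library. *Cyp26a1* moves from 3 to 5030 in WT and from 2 to 1792 in Cripto KO, whereas *Crabp1* moves from 407 to 113 in WT and from 225 to 1076 in Cripto KO.

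*Stra6*, the retinol receptor gene (9:57911595-58001803, plus strand, NCBIM37), had 22 raw counts in WT serum/LIF, 206 in WT F/A, 13 in Cripto KO serum/LIF and 310 in Cripto KO F/A. Both F/A libraries stood above both serum/LIF libraries. The normalized value rose 11.6-fold in WT (95% counting interval 6.84 to 17.4) and 24.3-fold in Cripto KO (14.0 to 47.3). The log2 change in Cripto KO exceeded that in WT by 1.07 (0.18 to 2.24). No exon of another annotated gene overlaps *Stra6*, though parts of its span lie within other genes' introns.

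*Aldh1a2*, the gene of the retinoic acid synthesizing enzyme (9:71063596-71144050, plus strand), had 27, 319, 12 and 1080 raw counts in WT serum/LIF, WT F/A, Cripto KO serum/LIF and Cripto KO F/A. The lowest and the highest value thus both came from Cripto KO. It rose 14.98-fold in WT (9.06 to 20.7) and 90.4-fold in Cripto KO (52.8 to 181), and the 2 log2 changes differed by 2.59 (1.79 to 3.79). In F/A the Cripto KO library held 3.29 times the WT level (2.85 to 3.77). Of the other enzymes of this step on the pathway list, *Aldh1a3*, named here after its values were seen, alone was kept by the filter, with 12 raw counts in WT F/A and 26 in Cripto KO F/A.

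*Cyp26a1*, which encodes the retinoic acid hydroxylase of the early embryo (19:37772298-37776018, plus strand), was close to the detection limit in serum/LIF and abundant in F/A. It had 4 raw counts in WT serum/LIF, 4821 in WT F/A, 2 in Cripto KO serum/LIF and 1740 in Cripto KO F/A. The normalized value rose 1677-fold in WT (535 to 5031) and 896-fold in Cripto KO (248 to 7433). The difference of these log2 changes was -0.90 (-3.06 to 1.84), an interval that holds 0 because serum/LIF gave so few counts. Within F/A, where both counts were high, the Cripto KO level was 0.356 times that of WT (0.325 to 0.376).

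*Cyp26b1*, the paralogue best known from the hindbrain and limb (6:84521938-84543740, minus strand), stayed low throughout, with 21, 11, 29 and 46 raw counts in the same order of libraries. Neither genotype changed by the rule, with log2 changes of -0.50 (WT) and 0.77 (Cripto KO). Within F/A Cripto KO stood at 4.19 times the WT level (1.90 to 9.19). *Cyp26c1*, which ends 4409 bases before the start of *Cyp26a1* on chromosome 19, had 6, 77, 1 and 20 raw counts and moved the same way as its neighbour, rising 16.7-fold in WT (6.41 to 41.0) and 31.3-fold in Cripto KO (2.94 to 897), with a ratio of Cripto KO to WT of 0.296 in F/A (0.116 to 0.488).

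Per kilobase of transcript, *Cyp26a1* made up 98.3% of the summed *Cyp26* level in WT F/A and 97.8% in Cripto KO F/A, against 21.4% and 13.4% in serum/LIF. The summed *Cyp26* level was 0.609 RPKM (counts scaled by transcript length and library total) in WT serum/LIF, 182 in WT F/A, 0.517 in Cripto KO serum/LIF and 63.8 in Cripto KO F/A. The ratio of *Cyp26a1* to *Aldh1a2* per kilobase was 19.3 in WT F/A (17.2 to 21.7) and 2.06 in Cripto KO F/A (1.85 to 2.30). In serum/LIF it was 0.189 in WT (0.0481 to 0.543) and 0.213 in Cripto KO (0.0231 to 0.956), and these intervals overlap. A ratio within a library does not depend on scaling between libraries.

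*Crabp1*, which encodes a carrier that holds retinoic acid in the cytoplasm (9:54612555-54620917, plus strand), had 430 raw counts in WT serum/LIF, 110 in WT F/A, 213 in Cripto KO serum/LIF and 1072 in Cripto KO F/A. WT fell to 0.277 times its serum/LIF level (0.234 to 0.359) and Cripto KO rose 4.79-fold (4.43 to 6.12). These opposite directions were part of the choice of the genes. Cripto KO stood below WT in serum/LIF, at 0.552 times its level (0.446 to 0.623), short of a factor of 2, and above it in F/A, at 9.56 times (7.67 to 11.7). Over the whole table, 4712 genes changed in both genotypes by the rule and 16 of them, or 0.340%, did so in opposite directions, with 12 falling in WT and rising in Cripto KO as *Crabp1* did.

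*Crabp2*, the carrier that delivers retinoic acid to RAR (3:87752588-87757298, plus strand), had 75, 105, 48 and 506 raw counts in WT serum/LIF, WT F/A, Cripto KO serum/LIF and Cripto KO F/A. Cripto KO F/A was the high library and the others lay close together. The change in WT was 1.61-fold (1.17 to 2.17), short of a factor of 2, while Cripto KO rose 10.2-fold (7.97 to 15.2), a difference of 2.66 on the log2 scale (2.16 to 3.39). In F/A the Cripto KO level was 4.64 times that of WT (3.70 to 5.91). Both carriers together came to 36.4 RPKM in WT serum/LIF, 17.7 in WT F/A, 20.1 in Cripto KO serum/LIF and 125 in Cripto KO F/A.

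Within a library *Crabp1* exceeded *Crabp2* per kilobase by 5.68 to 1 in WT serum/LIF (4.44 to 7.36) and by 4.396 to 1 in Cripto KO serum/LIF (3.20 to 6.15). In F/A the ratio was 1.04 in WT, with an interval of 0.787 to 1.37 that holds 1, and 2.10 in Cripto KO (1.80 to 2.45).

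**Figure D2:**
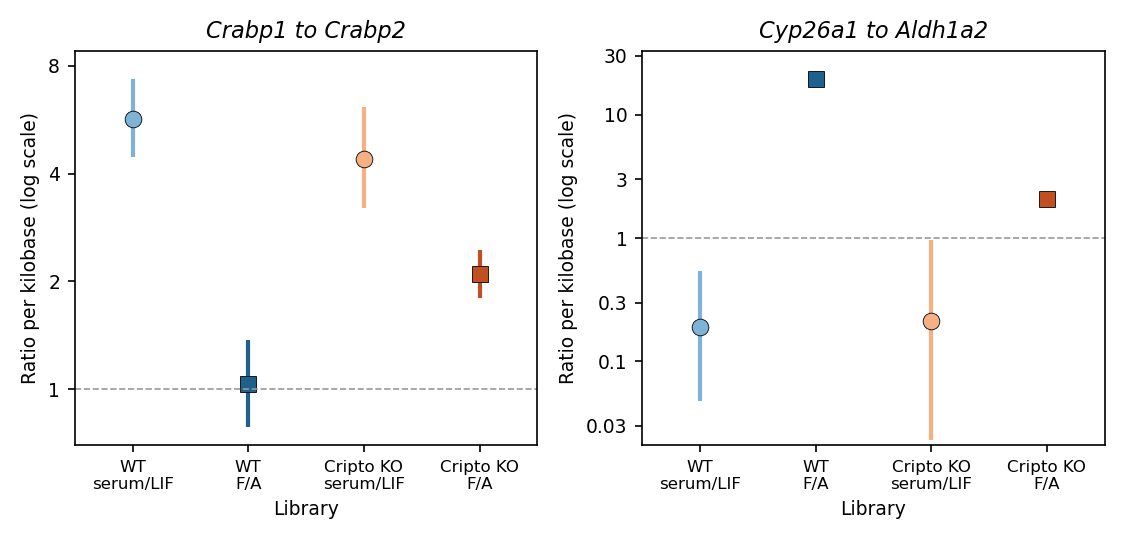
Ratio of *Crabp1* to *Crabp2* (left) and of *Cyp26a1* to *Aldh1a2* (right) per kilobase of transcript in each library, on log axes, with 95% counting intervals as vertical lines. The dashed line marks a ratio of 1. *Crabp1* to *Crabp2* is smaller in the F/A library of each genotype, and *Cyp26a1* to *Aldh1a2* is 19.3 in WT F/A against 2.06 in Cripto KO F/A.

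The receptor genes split. *Rarb* (14:17263356-17651381, minus strand), the receptor gene that retinoic acid induces, had 10 raw counts in WT serum/LIF, 324 in WT F/A, 10 in Cripto KO serum/LIF and 456 in Cripto KO F/A. It rose 43.0-fold in WT (19.8 to 77.5) and 45.9-fold in Cripto KO (25.2 to 99.6). The difference of the log2 changes was 0.09 (-0.93 to 1.64), and these counts do not separate the genotypes. In F/A, Cripto KO was at 1.34 times the WT level (1.15 to 1.62).

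*Rarg* (15:102065369-102087948, minus strand), the receptor gene that predominates in the caudal embryo, had 1784, 738, 2090 and 1152 raw counts in the same order, and *Rara* (11:98789132-98836256, plus strand), the broadly expressed one, had 1013, 623, 1225 and 652. Each genotype had less of both in F/A. *Rarg* fell in WT to 0.435 times its serum/LIF level (0.431 to 0.513) and stood at 0.560 times in Cripto KO (0.518 to 0.625), short of a factor of 2. Its log2 change in WT was -1.20, and -0.87 once the running median over transcript length was subtracted, which ends the call. That step took the median length of the *Rarg* transcripts, 678.5 bases, and the longest has 2953. Whether the call would be lost at the longest length was not tested. *Rara* stood at 0.655 times in WT (0.632 to 0.773) and 0.523 times in Cripto KO (0.485 to 0.622), which does not reach the factor of 2 either. The difference of the log2 changes between genotypes was 0.37 for *Rarg* (0.09 to 0.46) and -0.33 for *Rara* (-0.57 to -0.12).

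*Rarg* remained the most abundant of the 3 receptor transcripts per kilobase in every library, and *Rarb* gained the most in share. With the median annotated transcript length, *Rarg* held 86.2% of the summed receptor level in WT serum/LIF, 74.2% in WT F/A, 85.8% in Cripto KO serum/LIF and 79.5% in Cripto KO F/A. *Rarb* held 0.122%, 8.26%, 0.104% and 7.97% in that order, and *Rara* between 12.6% and 17.5%. The median length of the *Rarg* transcripts is far shorter than the longest, and with the longest transcript of each gene *Rarg* held 66.6%, 46.2%, 66.0% and 53.2% and *Rarb* 0.364%, 19.8%, 0.307% and 20.5%. With the median lengths, the summed receptor level was 176 RPKM in WT serum/LIF, 96.2 in WT F/A, 221 in Cripto KO serum/LIF and 136 in Cripto KO F/A. Of these sums *Rarg* gave 152, 71.4, 189 and 108 RPKM, so their size depends on its short median length. The RXR partners summed to between 93.6 and 119 RPKM, with *Rxra*, named here after its values were seen, rising 2.01-fold in WT (1.90 to 2.36) and 2.41-fold in Cripto KO (2.24 to 2.96).

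**Figure D3:**
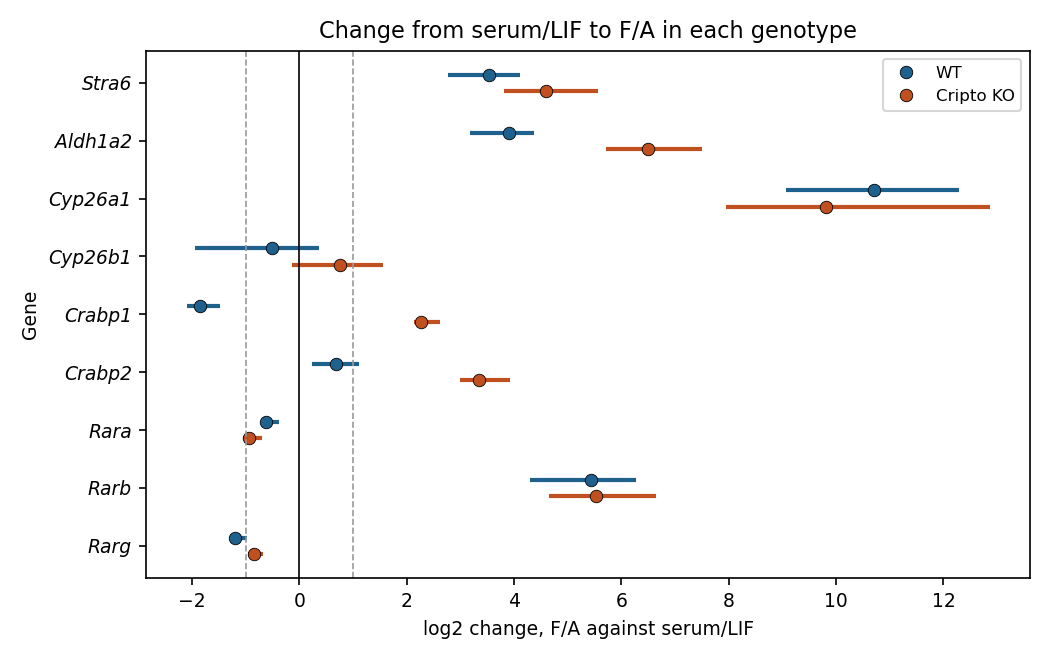
Log2 change of each gene from serum/LIF to F/A in WT (blue) and Cripto KO (orange), with 95% counting intervals as horizontal lines. Dashed lines mark a factor of 2 in each direction. The points of *Crabp1* lie on opposite sides of 0, at -1.85 and 2.26, while those of *Rarb* lie at 5.43 and 5.52.

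Cripto KO and WT were next compared within each medium, which asks what the loss of Cripto goes with before and after the switch to F/A. In F/A the carriers and the synthesizing enzyme were higher in Cripto KO and the principal clearing enzyme was lower. *Crabp1*, *Crabp2*, *Aldh1a2* and *Cyp26b1* were called higher and *Cyp26a1* lower, 5 of 9 genes beside 7.01% of all genes (2.93% higher and 4.08% lower). The receptors and *Stra6* differed by less than a factor of 2, with ratios of 1.02 for *Rara* (0.883 to 1.16), 1.34 for *Rarb*, 1.54 for *Rarg* (1.35 to 1.69) and 1.46 for *Stra6* (1.17 to 1.80). The F/A libraries also enter the contrasts on which the genes were chosen.

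In serum/LIF none of the 9 genes was called, beside 3.34% of all genes (1.36% higher and 1.97% lower). With total-count scaling, TMM or DESeq2 factors *Aldh1a2* was called lower, at log2 ratios of -1.08, -1.07 and -1.07 against -0.87 with the authors' normalization. The lowest ratios of Cripto KO to WT were 0.546 for *Aldh1a2* (0.218 to 0.966) and 0.552 for *Crabp1*, and neither interval held 1. That of *Aldh1a2* was wide, with at most 27 counts in a library. The counts of *Cyp26a1*, *Stra6* and *Rarb* in these libraries, between 2 and 22, could not show a moderate difference. *Aldh1a2*, *Crabp1*, *Crabp2* and *Stra6* were below WT in serum/LIF and above it in F/A, though *Stra6* was called in neither medium. The serum/LIF ratio was 0.734 for *Crabp2* (0.464 to 0.992) and 0.699 for *Stra6* (0.291 to 1.31).

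**Figure D4:**
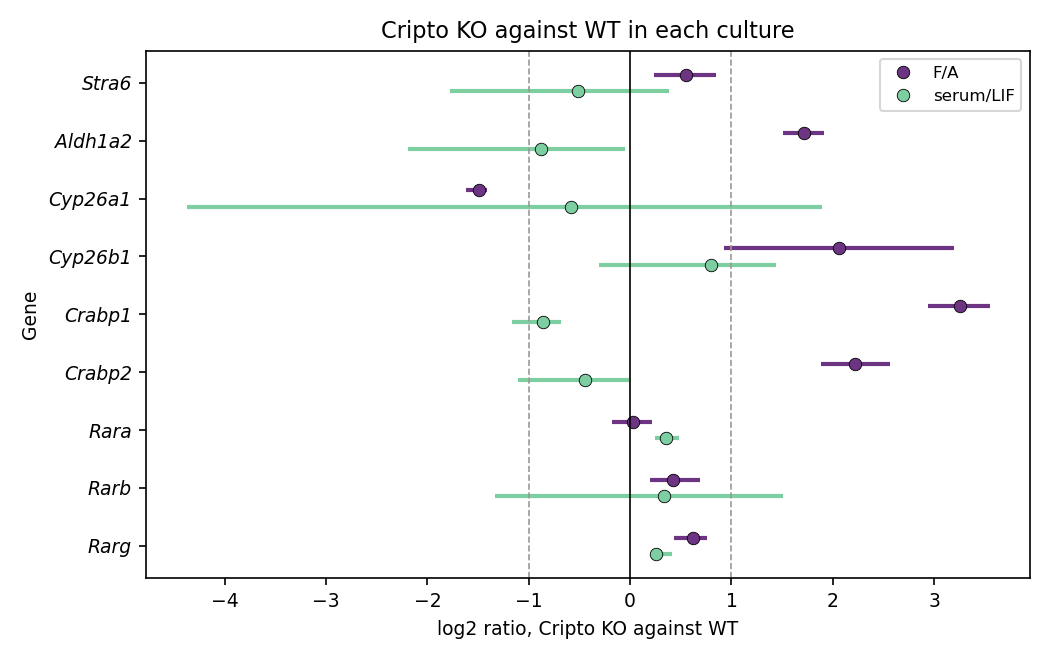
Log2 ratio of Cripto KO to WT for each gene in F/A (purple) and serum/LIF (green), with 95% counting intervals as horizontal lines and a factor of 2 in each direction as dashed lines. In F/A *Crabp1* lies at 3.26 and *Cyp26a1* at -1.49, and the wide serum/LIF interval of *Cyp26a1* reflects 4 and 2 counts.

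The other genes of the pathway were called about as often as genes at large. From a list of 46 genes, 43 were in the raw table and 29 were kept. In WT 8 of them rose (among them *Rbp4*, *Rdh10*, *Cyp26c1*, *Rxra*, *Rora* and *Nrip1*) and 6 fell (*Adh4*, *Adh5*, *Cyp1b1*, *Cyp2s1*, *Ncoa1* and *Ncoa3*), with a median log2 change of 0.37, beside 42.6% of all genes called in either direction. In Cripto KO 7 rose and 5 fell, with a median of 0.26, beside 37.8% of all genes, and *Dhrs3* and *Fabp5* were among those that rose.

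*Rdh10*, the retinol dehydrogenase that precedes *Aldh1a2* in the pathway, had 127 raw counts in WT serum/LIF, 918 in WT F/A, 102 in Cripto KO serum/LIF and 1686 in Cripto KO F/A. It rose 7.996-fold in WT (6.82 to 9.97) and 16.4-fold in Cripto KO (13.9 to 21.2), a difference of 1.04 on the log2 scale (0.66 to 1.46). In F/A it was higher in Cripto KO than in WT by less than a factor of 2, at 1.85 times (1.62 to 1.95).

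Among the genes that fell, *Cyp1b1*, a cytochrome P450 that can oxidize retinol, had 210, 33, 228 and 64 raw counts and fell to 0.176 times in WT (0.120 to 0.259) and 0.282 times in Cripto KO (0.194 to 0.421). *Cyp2s1*, another P450 gene, had 381, 102, 197 and 94 raw counts. *Adh5*, the class III alcohol dehydrogenase gene, had 6865, 2005, 6192 and 3382, and fell in WT but not by the rule in Cripto KO, at 0.317 (0.316 to 0.349) and 0.578 times (0.534 to 0.596).

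The coregulators of nuclear receptors also divided. *Nrip1*, a corepressor gene that retinoic acid is known to induce, had 159, 760, 139 and 704 raw counts and rose 5.22-fold in WT (4.58 to 6.49) and 4.82-fold in Cripto KO (4.29 to 6.41). *Ncoa1* and *Ncoa3*, which encode coactivators, fell in both, with 1244, 518, 1108 and 358 raw counts for *Ncoa1* and 3647, 1609, 3451 and 1156 for *Ncoa3*. Between genotypes 2 of the 29 genes were called in F/A, *Rdh12* higher and *Cyp26c1* lower in Cripto KO, beside 7.01% of all genes, and 1 in serum/LIF, *Adh4*, which was lower, beside 3.34%. Both counts lie near the share of all genes.

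Genes known to respond to retinoic acid mostly rose in F/A, more of them in Cripto KO than in WT. From a list of 28 such genes, 27 were kept. The list gives no direction of response, so a rise of a gene on it is not read as induction by retinoic acid. In WT 18 rose and 4 fell, with a median log2 change of 2.59, beside 21.7% of all genes higher and 20.9% lower. In Cripto KO 24 rose and 2 fell, with a median of 4.16, beside 18.8% higher and 18.9% lower. Some genes, such as *Dhrs3* and *Nrip1*, stand on this list and on that of the pathway, and the list was written with earlier results of these libraries known. Without its *Hox* genes 20 were kept, of which 14 rose and 4 fell in WT, with a median of 2.70, and 17 rose and 2 fell in Cripto KO, with a median of 2.69.

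The largest rises were those of *Fgf8*, a growth factor gene of the primitive streak and caudal embryo, with 2, 1256, 2 and 1066 raw counts in WT serum/LIF, WT F/A, Cripto KO serum/LIF and Cripto KO F/A. The normalized value rose 1022-fold in WT (197 to 5902) and 535-fold in Cripto KO (152 to 4558). Both serum/LIF counts of *Fgf8* lay under the detection limit of 3, so the size of these folds is uncertain. *Sp5*, a transcription factor gene that Wnt signalling also induces, had 10, 1001, 20 and 1680 raw counts, and *Foxa1*, a transcription factor gene of endoderm and floor plate, had 8, 814, 8 and 506. Each of these also responds to signals other than retinoic acid.

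*Hoxb1*, a direct retinoic acid target of the hindbrain and posterior mesoderm, had 1, 72, 1 and 374 raw counts and rose 98.3-fold in WT (14.2 to 3277) and 493-fold in Cripto KO (68.5 to 15340). Its serum/LIF counts also lay under the detection limit, so the size of these folds is uncertain. In F/A 11 of the 27 genes were higher in Cripto KO and 0 were lower, among the former *Hoxb1*, *Hoxa4*, *Hoxb4*, *Hoxd4*, *Hoxa5*, *Hoxb5*, *Nr2f1*, *Meis1*, *Meis2* and *Ret*. Over all genes 2.93% were higher and 4.08% lower. Without the *Hox* genes 4 of 20 were higher and 0 lower. *Meis1* and *Meis2* encode partners of HOX proteins. The median log2 ratio of the 27 was 0.75 in F/A and 0.20 in serum/LIF, where none was called, against 0 over all genes in both. *Meis1* and *Meis2*, named here after their values were seen, were 7.07-fold (5.51 to 8.87) and 4.27-fold (3.72 to 4.78) higher in Cripto KO F/A than in WT F/A.

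Not every target rose. *Stra8*, the retinoic acid response gene of germ cells entering meiosis, had 466 raw counts in WT serum/LIF and 244 in Cripto KO serum/LIF and was at 0 in both F/A libraries, so that it was at least 137-fold lower in WT and at least 39.4-fold lower in Cripto KO, computed at the detection limit of 3 and 6 counts. *Cdx1*, a caudal homeobox gene, fell in both genotypes with 51, 10, 60 and 16 raw counts. *Ret*, a receptor tyrosine kinase gene of neural and kidney precursors, had 72, 15, 41 and 94 and so fell in WT and rose in Cripto KO. *Nr2f1*, which encodes COUP-TFI and was named after its values were seen, did the same with 21, 5, 13 and 52 raw counts. *Cyp26a1* and *Rarb* rose in both F/A libraries in which *Stra8* was not detected.

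**Figure D5:**
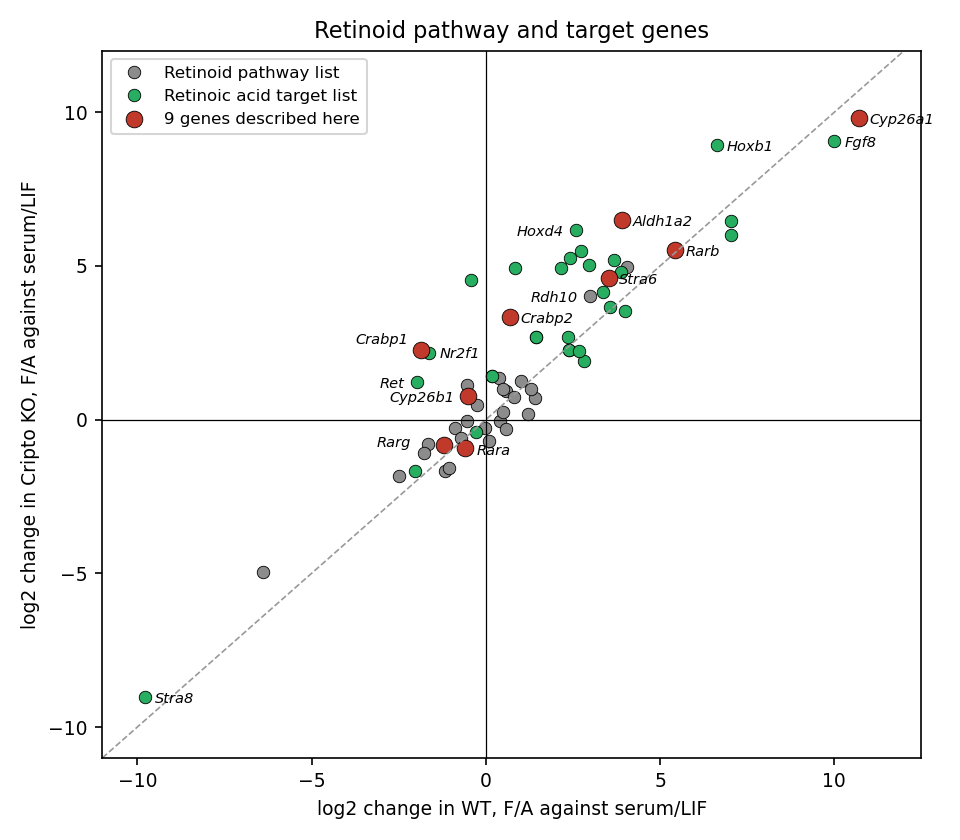
Log2 change on the switch to F/A in Cripto KO (vertical axis) against WT (horizontal axis) for the 9 genes (red), the other retinoid pathway genes (grey) and the retinoic acid targets (green). Each point is 1 gene, the dashed line marks equal change, and both changes of a gene rest on separate libraries. *Crabp1*, *Ret* and *Nr2f1* lie in the upper left quadrant, and *Stra8* lies at -9.79 and -9.01.

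Markers of other cell types also differed between genotypes in F/A, in directions that varied between and within lists. A list of paraxial and lateral mesoderm markers, of which 7 of 8 were kept, summed to 28.0 cpm in WT serum/LIF, 84.2 in WT F/A, 29.4 in Cripto KO serum/LIF and 303 in Cripto KO F/A, with 5 of the 7 called higher in Cripto KO F/A than in WT F/A (*Meox1*, *Tcf15*, *Foxc2*, *Hand1* and *Tbx5*) and none at 0 in either F/A library. Most of both serum/LIF sums came from *Tcf15*, which fell from serum/LIF to F/A in both genotypes. Fibroblast markers, 6 of 7 kept, summed to 116, 72.5, 123 and 190 cpm, with *Col1a1*, *Col3a1* and *Dcn* called higher in Cripto KO F/A. The collagen genes of this list gave most of the Cripto KO F/A sum, while *Thy1* and *Dcn* fell from serum/LIF to F/A in both genotypes. Neural and hindbrain markers, 5 of 8 kept, summed to 78.2, 42.8, 90.0 and 73.6 cpm, with *Olig2* at 0 in both F/A libraries. *Egr2* and *Hoxb1* of this list were called higher in Cripto KO F/A than in WT F/A. Neural crest markers, 2 of 5 kept, summed to 46.6, 71.4, 80.3 and 91.5 cpm, and *Ets1* took most of the F/A sums. *Foxd3* alone of that list was called between genotypes in F/A, and it was lower in Cripto KO. Visceral and primitive endoderm markers, 7 of 10 kept, summed to 223 cpm in WT F/A and 213 in Cripto KO F/A with *Afp* at 0. These sums hide changes both ways. *Sox17* and *Cubn* were called lower in Cripto KO F/A, whereas *Gata4* and *Gata6* had more counts there without being called. Of the 11 streak and caudal markers, *Cdx2*, *Nkx1-2*, *Wnt3a* and *Hes7* were called higher in Cripto KO F/A than in WT F/A and *Mixl1*, *Eomes* and *Tbx6* lower. In the same comparison *Fgf5*, *Otx2* and *Cer1* of the primed epiblast list were lower in Cripto KO. Of the trophoblast list, 4 of 6 kept, *Hand1* alone was called there, higher in Cripto KO, and it also stands on the mesoderm list. The study places *Hand1* and *Cdx2* among genes of trophoblast specification. The part of these differences in cell makeup in the higher *Aldh1a2*, *Crabp1*, *Crabp2* and target levels was not tested. Some markers were already called between genotypes in serum/LIF. There *Egr2* was higher in Cripto KO, and *Lef1*, *Eomes*, *Gata6*, *Cubn* and *Krt7* were lower. Of these, *Egr2*, *Eomes* and *Cubn* were called in the same direction in F/A.

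The genes whose pattern over the 4 libraries lay nearest to that of *Cyp26a1*, by Euclidean distance of centred log2 values among 10811 genes, were *Gm17493* (0.798), *T* (0.809) and *9530036O11Rik* (0.887). *T*, the brachyury gene of the primitive streak, had 13 raw counts in WT serum/LIF, 8748 in WT F/A, 4 in Cripto KO serum/LIF and 5598 in Cripto KO F/A. Nearest to *Crabp1* were *Emid2* (0.608), *Col3a1* (0.998) and *Cxcl12* (1.08). *Emid2*, a collagen gene, had 296, 105, 205 and 642 raw counts, the order of libraries that *Crabp1* also showed, and *Col3a1*, a fibrillar collagen gene that stands on the fibroblast list, had 128, 72, 146 and 610.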

How the data were processed

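RNA of 4 cultures was sequenced on a HiSeq 2500, 1 library per condition. The authors aligned reads with TopHat2 2.0.13 to NCBIM37, counted them per gene of Ensembl 67 with HTSeq 0.6.1p1 and deposited the raw counts. Whether the counting used strand is not given in the sources used here. The second deposited table, a signal derived from these counts, holds the authors' full quantile normalization (preprocessCore 1.28.0) of genes passing the NOISeq 2.8.0 filter at 1 cpm. It was rebuilt here from the raw counts, with 100% of values within 1%.

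Ratios used the normalized values (0.5 in place of 0) in Python 3.11.15 (numpy 2.4.6, scipy 1.17.1, pandas 2.3.3). Their 95% Clopper-Pearson intervals come from raw counts scaled by library totals, so that the ratio need not lie at the centre. Intervals of differences between log2 changes used the Poisson variance of the 4 counts. With 1 library per group no significance test or p-value was computed, and the simulated probabilities of the study's NOISeq-sim calls were not computed. The precision follows from library totals of 15230856 to 17315442 counts. Positions, symbols and median transcript lengths came from GENCODE M1 (Ensembl 65), which named 98.9% of the raw table. RPKM and per-kilobase shares used raw counts and these lengths.

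The 9 genes and all lists were chosen with earlier results of these data known. Other genes were named if they were among the 3 largest called changes of a list in a direction and a genotype, and reached 50 raw counts in a library, or the 3 nearest to *Cyp26a1* or *Crabp1* in pattern with at least 200. Other genes given by value are marked as named after seeing their values, and the rest are named only among called genes. Some genes of the lists are counted but not reported here by name. The alternatives were total-count scaling, TMM factors (edgeR 4.0.16) and size factors (DESeq2 1.42.0) in R 4.3.3, 5 added to every value, no filter, a mean of at least 50 raw counts, the fold alone, a fold of at least 3, Cripto KO F/A counts halved before normalization, the longest transcript and normalized values for shares, and, added after seeing the data, subtraction of a running median over transcript length (501 genes). The scripts were tested on simulated data, and figures were drawn with matplotlib 3.10.9.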

Additional observations from a re-analysis of the deposited data

Results flagged for a closer look

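Some genes moved in opposite directions in WT and Cripto KO on the change from serum/LIF to F/A, and the difference was not tested, since each value rests on single libraries. Given as the log2 change in Cripto KO minus that in WT, it was 4.11 for *Crabp1*, 3.78 for *Nr2f1* and 3.21 for *Ret*, whose falls in WT and rises in Cripto KO both passed a factor of 2. It was -0.86 for the corepressor gene *Ncor1* and -0.78 for *Nsd1*, a histone methyltransferase gene, neither of which reached a factor of 2 in either genotype. *Nsd1* hardly moved in WT, with log2 changes of 0.08 in WT and -0.70 in Cripto KO, against 0.57 and -0.29 for *Ncor1*. These differences are not adjusted for the trend with transcript length described below.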

How the results depend on the processing

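Of 355 values of log2 changes and differences of the 9 genes under the alternatives, 352 moved little beside the size of their counting interval and none had another sign. The other 3 came from subtracting the running median over transcript length. It gave -1.51 for *Crabp1* and -0.87 for *Rarg* in WT and -0.66 for *Rarg* in Cripto KO. The *Crabp1* value still lay inside its counting interval. *Rarg* in WT then no longer reached a factor of 2, with its median length of 678.5 bases used and not the longest of 2953. The median difference between genotypes of all genes ran from 0.23 in the shortest eighth of transcripts to -0.36 in the longest, and the cause was not tested.

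With a fold of at least 3, 4204 genes were called in WT, 3846 in Cripto KO, 421 in F/A between genotypes and 187 in serum/LIF, and of the pathway list 7, 7, 1 and 0. With a mean of at least 50 raw counts, which tests fewer genes, the genotype contrasts called 630 in F/A and 219 in serum/LIF, with 0 pathway genes in either and 5 targets in F/A. The fold alone called 867 genes in serum/LIF with 2 pathway genes and 2 targets, and without a filter 2 pathway genes were called there. Total-count scaling, TMM and DESeq2 factors each called 1 of the 9 genes in serum/LIF, *Aldh1a2*, at log2 ratios of -1.08, -1.07 and -1.07.

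With the longest transcripts the shares of *Rara*, *Rarb* and *Rarg* were 33.0%, 0.364% and 66.6% in WT serum/LIF, 34.0%, 19.8% and 46.2% in WT F/A, 33.7%, 0.307% and 66.0% in Cripto KO serum/LIF, and 26.3%, 20.5% and 53.2% in Cripto KO F/A, and *Crabp1* to *Crabp2* was 2.46 in Cripto KO F/A. No paired analysis was possible because each condition has 1 library, and none could be left out. Depth limits *Cyp26a1*, *Aldh1a2*, *Stra6* and *Rarb* in serum/LIF, where 2 to 27 counts leave wide intervals.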
